A study of Rattus norvegicus with 24 samples.

Results

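The genes described here were 10 transcripts that mark microglia in rodent brain, chosen by gene name from the reference genes (Ensembl rat identifiers) of the deposited tables: Cx3cr1, P2ry12, Csf1r, Tmem119, Itgam, Aif1, Cd68 and the complement C1q chains C1qa, C1qb and C1qc. They are 10 of the 32883 reference genes listed in each table, and each was found under a single identifier in every table. The samples were frontal cortex of 24 adult male Sprague-Dawley rats that inhaled an aerosol, taken 24 h later, with 1 library per rat. The 8 Control rats received 0 mg/m3 of tungsten particles, the 8 Low rats 5 mg/m3 and the 8 High rats 80 mg/m3. Control holds libraries 49 to 56, Low libraries 57 to 64 and High libraries 65 to 72. Whole tissue was sequenced, so fewer microglia and less RNA per microglial cell cannot be told apart in any value below. All 10 genes were above 0 in all 24 libraries, and P2ry12, Tmem119 and Cx3cr1, transcripts much used as markers of microglia, were well measured.

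Microglia are the resident macrophages of the brain. In the healthy cortex they carry a set of surface receptors that sense neurons and injury, and several of these are lost when the cells become activated. They are also the main source in the brain of C1q, the protein that starts the classical complement cascade and that tags synapses and debris for uptake. One C1q molecule is built from the products of C1qa, C1qb and C1qc together.

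The 3 C1q genes are neighbours. In the coordinates of the tables, all lie on the minus strand of chromosome 5, with C1qb (ENSRNOG00000012749) at chr5:155246447-155252003, C1qc (ENSRNOG00000012804) at chr5:155255005-155258392 and C1qa (ENSRNOG00000012807) at chr5:155261250-155264143. The gaps are 3001 bases between C1qb and C1qc and 2857 bases between C1qc and C1qa, and the whole cluster spans 17697 bases. The other members are scattered. Cx3cr1 (ENSRNOG00000018509) lies at chr8:128740756-128754514 on the minus strand, P2ry12 (ENSRNOG00000013902) at chr2:149441598-149444548 on the minus strand, Csf1r (ENSRNOG00000018414) at chr18:56414488-56458300 on the plus strand and Tmem119 (ENSRNOG00000000700) at chr12:48598647-48605704 on the plus strand. Itgam (ENSRNOG00000019728) lies at chr1:199495298-199623960 on the plus strand, Aif1 (ENSRNOG00000000853) at chr20:5161333-5166448 on the minus strand and Cd68 (ENSRNOG00000037563) at chr10:56268720-56270640 on the minus strand. The interval given for Itgam is 128663 bases long and overlaps the neighbouring integrin gene Itgax on the same strand, and P2ry12 lies inside Med12l on the opposite strand. The labels name the assembly mRatBN7.2, but positions on chromosome 1 of the tables reach 282724300, so the coordinates are given as the tables have them, with no assembly assigned.

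Over the 24 libraries Csf1r and the C1q chains rose and fell together, though Csf1r and C1qa did not within Low (below). The 250 bases before the RefSeq start of Csf1r, C1qa and C1qb are shown as a description, and no window was found for C1qc. They were read from RefSeq's GRCr8 table at chr18:56834129-56834378 (plus strand), chr5:154419934-154420183 (minus strand) and chr5:154407828-154408077 (minus strand). Whether these windows bear on the shared movement was not tested. Capitals mark GAGGAA or its reverse complement TTCCTC, 6 letters found in many sites bound by PU.1 (Spi1). Microglia and other myeloid cells depend on this transcription factor. Other forms of the site were not marked.
Csf1r: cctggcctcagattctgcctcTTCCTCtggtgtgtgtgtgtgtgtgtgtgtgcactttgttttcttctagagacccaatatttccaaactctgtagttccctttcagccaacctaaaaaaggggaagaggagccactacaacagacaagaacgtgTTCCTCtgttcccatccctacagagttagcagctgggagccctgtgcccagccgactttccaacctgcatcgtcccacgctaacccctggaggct
C1qa: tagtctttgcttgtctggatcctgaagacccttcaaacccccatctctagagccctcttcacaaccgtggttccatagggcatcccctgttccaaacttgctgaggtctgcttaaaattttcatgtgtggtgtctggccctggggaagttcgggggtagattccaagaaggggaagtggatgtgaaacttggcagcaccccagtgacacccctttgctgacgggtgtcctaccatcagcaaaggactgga
C1qb: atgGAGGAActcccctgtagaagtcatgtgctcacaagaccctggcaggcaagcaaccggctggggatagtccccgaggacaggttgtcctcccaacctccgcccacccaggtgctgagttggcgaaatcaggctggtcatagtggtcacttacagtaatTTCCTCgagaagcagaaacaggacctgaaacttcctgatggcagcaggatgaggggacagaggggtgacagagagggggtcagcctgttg
The Csf1r window held 2 matches, which begin 229 and 95 bases before the start. The C1qb window also held 2, beginning 247 and 90 bases before the start, and the C1qa window held none. RefSeq windows were found for 6 members, of which 4 (Csf1r, Itgam, Cd68 and C1qb) held at least 1 match and 2 (Cx3cr1 and C1qa) held none. Of all 33469 windows of the same length, 23.3% held a match. A match is a description of the letters and not a bound site.

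Levels are given as scaled coverage, the mean read depth per base of a gene divided by the summed depth of all reference genes in that library and multiplied by 1000000. This unit is per length, so levels of different genes can be set side by side. The places of Aif1 and Itgam among the members depended on the column read (below). The surface receptors came first. Csf1r, the receptor for the growth factors on which microglia survive, lay between 30.9 and 58.3 in the Control rats (median 44.3), between 38.5 and 52.6 in the Low rats (median 47.8), and between 32.6 and 56.2 in the High rats (median 43.1). The 3 ranges overlapped over most of their length. Cx3cr1, the receptor for the neuronal chemokine Cx3cl1, lay between 11.4 and 28.4 in the Control rats, with a median of 23.04. The Low rats lay between 12.5 and 26.7 (median 22.9), and the High rats between 15.0 and 27.3 (median 19.9). Library 49 in Control and library 57 in Low were the lowest of their groups, and the next lowest Low library stood at 22.1.

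P2ry12, the receptor by which microglial processes sense nucleotides, lay between 13.2 and 30.7 in the Control rats, with a median of 23.7. The Low rats lay between 19.4 and 30.7 (median 21.8), and the High rats between 14.4 and 33.1 (median 22.7). Its spread between rats of the same group, 0.38 on the log2 scale, was larger than that of 81.2% of all genes tested. Tmem119, a membrane protein used to tell microglia from infiltrating macrophages, was the steadiest of the 9 members tested, with 0.23 on the same scale against a median of 0.22 for all genes. It lay between 12.995 and 24.6 in the Control rats, with a median of 19.1. The Low rats lay between 16.4 and 20.6 (median 18.9), and the High rats between 16.4 and 24.9 (median 18.3).

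Aif1, which encodes the calcium-binding protein Iba1, had Control values of 7.81 to 14.1 (median 10.1), Low values of 8.81 to 13.7 (median 11.1) and High values of 7.78 to 14.1 (median 11.4). Cd68, a protein of lysosomes that is raised in phagocytic cells, was low throughout, with Control rats between 1.44 and 2.91 (median 2.21), Low rats between 0.930 and 2.59 (median 1.69), and High rats between 0.895 and 3.72 (median 1.95). Itgam, the alpha chain of complement receptor 3 (CD11b), was the lowest of the 10 on this scale, with Control rats between 0.452 and 1.24 (median 0.788), Low rats between 0.479 and 1.36 (median 0.957), and High rats between 0.609 and 1.22 (median 0.916). For each of these genes the 3 groups overlapped.

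The C1q chains were among the highest members. C1qa lay between 43.2 and 78.9 in the Control rats, with a median of 60.9. The Low rats lay between 59.9 and 73.8 (median 64.5), and the High rats between 51.3 and 93.9 (median 61.9). C1qb lay between 27.5 and 49.1 in the Control rats, with a median of 33.1. The Low rats lay between 29.6 and 47.2 (median 37.7), and the High rats between 26.2 and 51.2 (median 32.6). C1qc lay between 23.4 and 37.6 in the Control rats, with a median of 26.5. The Low rats lay between 23.2 and 31.8 (median 28.0), and the High rats between 21.7 and 45.9 (median 28.8). In each chain the highest High library was library 67 and the highest Control library was library 56, and the Low values lay in the narrowest range.

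**Figure D1:**
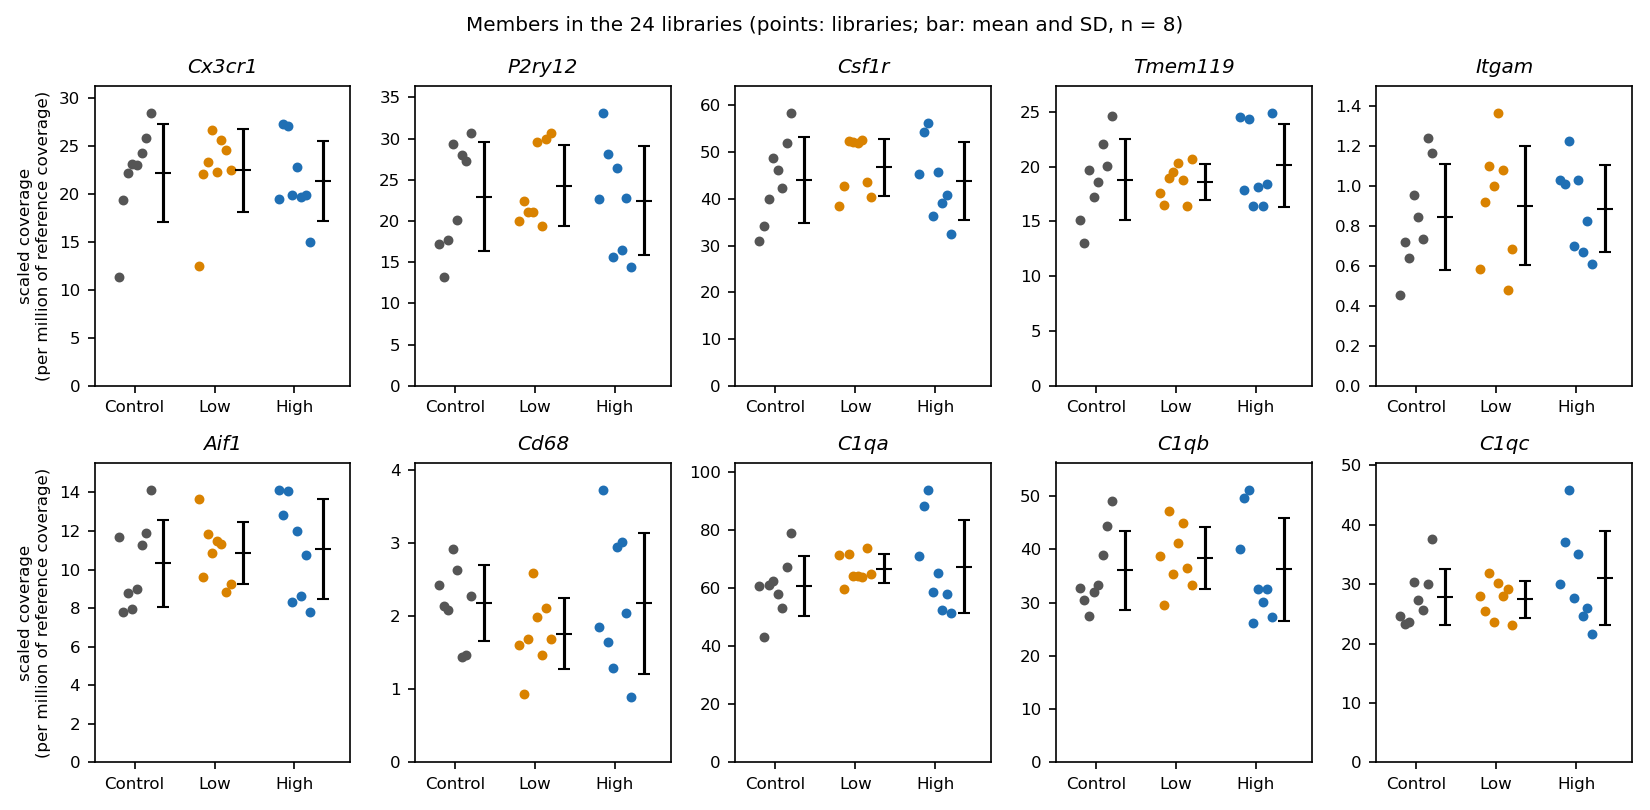
Scaled coverage (y axis, scaled to the summed reference coverage, from 0) of the 10 members in each library, by group (x axis), with the mean and SD of 8 libraries beside the points. The groups overlap for every member, and the single low Cx3cr1 values are library 49 in Control (11.4) and library 57 in Low (12.5).

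In Control and High, members tended to be high or low together within a rat. Library 56 was the highest Control library for 8 of the 10 members, library 67 the highest High library for 5, and library 72 the lowest High library for 8. Library 50 was the lowest Control library for 5 members and stood above the group median for 0 of 10. In Low, no library was the highest for more than 2 members or the lowest for more than 3. The sum over the 10 members lay between 187.5 and 325.2 for Control rats, between 230.03 and 281.3 for Low rats, and between 196.5 and 343.6 for High rats.

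By Control means, C1qa (60.6 ± 10.3, SD, n = 8) stood above Csf1r (44.1 ± 9.13), C1qb (36.1 ± 7.42), C1qc (27.8 ± 4.78), P2ry12 (22.96 ± 6.65), Cx3cr1 (22.2 ± 5.11), Tmem119 (18.8 ± 3.71), Aif1 (10.3 ± 2.26), Cd68 (2.17 ± 0.517) and Itgam (0.843 ± 0.265). C1qa was above Csf1r in all 24 libraries, and the order C1qb above C1qc held in 22 of 24. P2ry12 and Cx3cr1 could not be ordered, since P2ry12 was the higher in 15 of 24 libraries. On this scale C1qa was higher than 89.8% of the 24520 reference genes with a Control mean above 0, Cx3cr1 than 74.7% and Itgam than 34.4%.

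The deposited FPKM column, fragments per kilobase scaled to library size, gave the same order for the upper members and another for Aif1 and Itgam. In FPKM the Control means were 20.7 ± 3.37 for C1qa, 17.4 ± 3.05 for Csf1r, 9.004 ± 2.08 for Aif1, 1.02 ± 0.519 for Itgam and 0.744 ± 0.184 for Cd68 (SD, n = 8). Aif1 stood above P2ry12 by FPKM in 19 of 24 libraries, while by coverage it stood below Tmem119 in all 24. For C1qa, C1qb, C1qc, Cd68 and Tmem119 FPKM and coverage stood in the one ratio that holds for a gene with a single transcript, within 0.1%. For Aif1 the FPKM was 2.37 to 2.74 times that expected from coverage, and for Csf1r 1.09 to 1.24 times. The place of Aif1 and of Itgam in the order of levels depends on which column is read, while Csf1r stood second in both.

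The exposed groups were compared with Control to ask whether inhaled tungsten moved these transcripts in the cortex. The test was limma on log2(scaled coverage + 1) across the 15644 genes whose mean scaled coverage reached 1, with Benjamini-Hochberg adjustment and a threshold of 0.05. Itgam, with an overall mean of 0.876, fell under that filter, so 9 of the 10 members were tested. Fold changes are on the log2(value + 1) scale and understate changes of low genes such as Cd68.

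At the high dose, by limma 0 of the 9 passed, against 0% of all genes tested, and 0 of the 9 had an unadjusted p under 0.05, against 330 of all genes. An exact Wilcoxon rank-sum test with the same adjustment also called 0 of all genes. The 3 C1q chains differed in sign. C1qa was 67.4 ± 16.04 in High and 60.6 ± 10.3 in Control (SD, n = 8 each), a log2 difference of 0.14 ± 0.12 (SE) with a 95% interval from -0.10 to 0.38 (limma adjusted p = 0.999). C1qc was 31.0 ± 7.93 against 27.8 ± 4.78, a log2 difference of 0.13 ± 0.12 with an interval from -0.12 to 0.38. C1qb was 36.2 ± 9.72 against 36.1 ± 7.42, a log2 difference of -0.01 ± 0.14 with an interval from -0.30 to 0.28.

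Among the receptors, Csf1r had a log2 difference of 0.00 with an interval from -0.26 to 0.25 in High against Control. Cx3cr1 stood at -0.03 (interval -0.36 to 0.29), P2ry12 at -0.03 (-0.40 to 0.34) and Tmem119 at 0.10 (-0.13 to 0.33). P2ry12, Tmem119 and Cx3cr1 are known to fall in activated microglia. The lowest end of their intervals at this time and dose was a fold of 0.758, that of P2ry12. Each interval is for a single gene in whole tissue and is not a joint bound on the genes. A fall per microglial cell was not tested, since cell number and RNA per cell cannot be told apart. The Cx3cr1 estimate also moved when a low library was left out (below). Aif1 stood at 0.09 (-0.18 to 0.36) and Cd68 at -0.04 (-0.38 to 0.30). Over the 9 members the intervals ran from 0.758-fold to 1.30-fold, 4 of 9 estimates were above 0, and the median was 0.00 against -0.03 for all genes tested.

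At the low dose, again 0 of the 9 members passed, against 6.11% of all genes tested (956 of 15644, of which 192 were higher and 764 lower in Low). The split of all genes moved with the scaling, to 858 higher and 901 lower without mitochondrial genes in the sum and to 56 and 705 without scaling, with 0 members called in either. At an unadjusted p under 0.05 there were 0 members and 2885 genes, and the exact Wilcoxon test called 372 genes and 0 members. C1qa was 66.7 ± 4.96 in Low, a log2 difference from Control of 0.15 ± 0.12 (SE) with an interval from -0.09 to 0.39 (limma adjusted p = 0.510). C1qb stood at 0.10 (-0.19 to 0.38) and C1qc at -0.01 (-0.26 to 0.24). Csf1r stood at 0.10 (-0.15 to 0.35), P2ry12 at 0.11 (-0.26 to 0.48), Cx3cr1 at 0.03 (-0.30 to 0.35) and Tmem119 at 0.00 (-0.23 to 0.23).

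Cd68 had the largest difference of the 9 in that comparison, at 1.76 ± 0.487 in Low against 2.17 ± 0.517 in Control, a log2 difference of -0.21 with an interval from -0.54 to 0.13 (limma adjusted p = 0.528). Aif1 stood at 0.08 (-0.19 to 0.35). The members' median was 0.08 against 0.06 for all genes, and 7 of 9 estimates were above 0 against 66.5% of all genes. The Low tables were the only ones that list no assembled loci (below), so that dose and the kind of table cannot be told apart in any comparison with Low. Libraries 56 to 62 also stood apart, with a summed scaled coverage of 8 minus-strand mitochondrial tRNA genes of 5449 to 8103 against 84.9 to 155 in the other libraries, and they are 6 of the 8 Low, 1 of the 8 Control and 0 of the 8 High libraries. With that set as a covariate, 361 of all genes passed in Low against Control and 354 in Low against High, again with 0 members, and the estimates in Low against Control became -0.16 for Aif1, -0.09 for Csf1r and -0.09 for C1qb.

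Between both doses, 0 of the 9 members passed, against 11.7% of all genes tested (1828 of 15644, with 829 higher and 999 lower in Low), and 0 had an unadjusted p under 0.05, against 4545 of all genes. The split became 1550 higher and 1169 lower without mitochondrial genes in the sum, 370 and 1286 with median-of-ratios scaling, and 108 and 1262 without scaling. The exact Wilcoxon test called 1147 genes and 0 members. The estimates of Low minus High ran from -0.17 for Cd68 (interval -0.50 to 0.17) and -0.14 for C1qc (-0.39 to 0.11) to 0.14 for P2ry12 (-0.23 to 0.51), with a median of 0.02 against 0.09 for all genes.

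**Figure D2:**
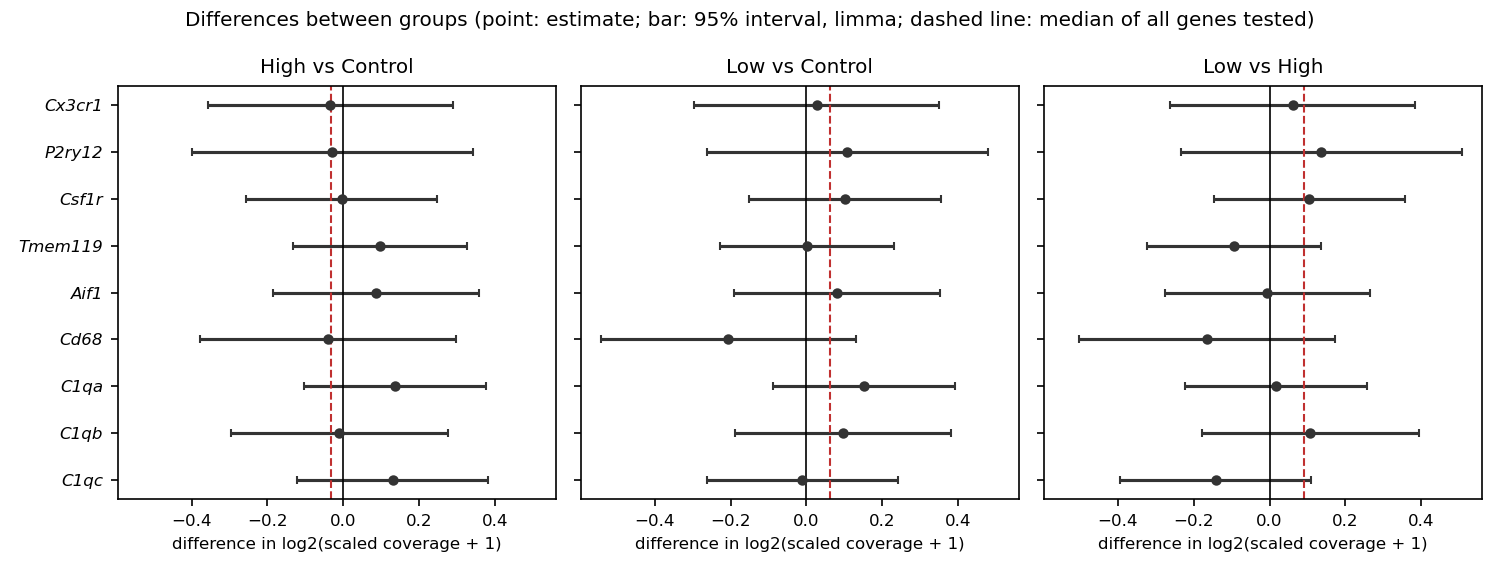
Differences in log2(scaled coverage + 1) (x axis) of the 9 tested members (y axis) in 3 comparisons, with points for the estimates, bars for the 95% intervals from limma and a dashed line for the median of all genes tested. Every bar crosses 0, and the bars of P2ry12 and Cd68 are the widest.

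Cx3cr1 rested on the pair of low libraries more than any other member did. Without library 49, its log2 difference from Control was -0.16 in High and -0.10 in Low, and without library 57 it was 0.14 in Low. Without both, it was -0.16 in High (limma adjusted p = 0.467) and 0.01 in Low (adjusted p = 0.963), and 0 of the 9 members passed in any comparison. Of all genes, 390 then passed in High against Control, against 0 with library 49 alone left out or with none (library 57 alone was not left out of that comparison). Part of the low value in library 49 depends on the column. It was the single library in which the Cx3cr1 FPKM departed from the ratio of a single transcript (1.35 times), and its FPKM of 5.92 stood near the next Control value of 6.60. In library 57 the FPKM of 6.51 remained apart from the other Low values, the lowest of which was 10.8. The same 2 libraries were also the lowest of their groups for endothelial and pericyte markers, whose summed coverage was 38.1 in library 49 and 38.3 in library 57 against 69.04 to 87.3 and 64.6 to 86.97 in the other libraries of each group. They were the lowest for astrocyte markers too, at 774.7 and 898.3 against group medians of 1393 and 1455. The part of these libraries' other cell markers in the Cx3cr1 values was not tested.

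The one setting that turned calls was the choice of column. In the deposited FPKM column, 9 members (all but Cd68, which fell under the filter on low values) passed as higher in Low than in Control, with log2 differences from 0.44 for Cx3cr1 to 0.91 for Itgam. In that column 12393 of 13816 genes passed and the median difference of all genes was 0.53, so that C1qa at 0.64, C1qb at 0.58 and C1qc at 0.46 lay around the middle of all genes. In the deposited TPM column 1 member passed, Itgam, at 0.85 with an interval from 0.31 to 1.40 (limma adjusted p = 0.0216), against a median of 0.17 for all genes. In High against Control 0 members passed in either column.

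**Figure D3:**
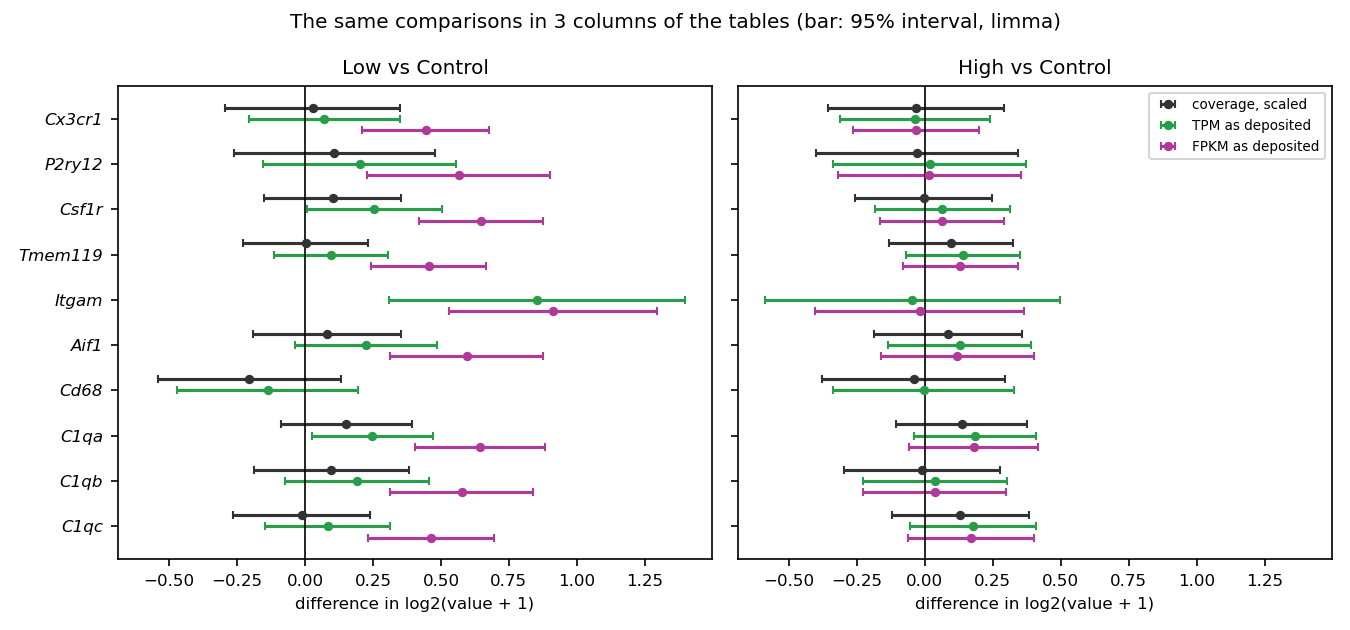
Differences in log2(value + 1) (x axis) of the members (y axis) from Control in 3 columns of the tables, with 95% intervals from limma, for Low (left) and High (right). The FPKM points of Low lie to the right of 0 for all 9 members plotted there, around the median of all genes in that column (0.53), while all columns straddle 0 in High.

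The Itgam difference moved with how the tables list the gene. On scaled coverage, with no filter on low values, Itgam differed from Control by 0.04 in Low (interval -0.18 to 0.26) and by 0.04 in High (-0.18 to 0.26). In FPKM, the ratio to the value expected from coverage was 1 to 5.002 in Control and 1 to 4.53 in High, but 6.28 to 6.40 in all 8 Low tables. In every Control and High table an assembled locus on the same strand lay over the Itgam interval, with 6.34 to 6.58 times the coverage of the gene in Control and 6.21 to 6.43 times in High, over a median of 38.8% of its interval. The scaled coverage of that locus was 5.39 ± 1.69 in Control and 5.61 ± 1.37 in High (SD, n = 8 each). The Low tables list no such loci.

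Assembled loci are features that StringTie built from the reads rather than from the annotation, and such a locus also covered the other members in Control and High. For C1qb and C1qc the locus had the same coverage as the gene in all 16 tables and the same span. C1qa loci reached 54.7 ± 13.8 in Control and 61.9 ± 14.2 in High, a log2 ratio of means of 0.18, and Csf1r loci 47.6 ± 10.2 and 44.9 ± 9.10, a log2 ratio of -0.08. P2ry12 loci held only 0.395 to 1 times the coverage of the gene. Aif1 loci held 1.19 to 2.72 times the coverage of the gene, at 17.1 ± 8.10 in Control and 19.0 ± 5.73 in High. Cd68 had a locus in 7 of 8 tables of each group. Across the 10 members the log2 ratio of High to Control loci ran from -0.08 (Csf1r and Cx3cr1) to 0.18 (C1qa), and no test was made.

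Within groups, the C1q chains rose and fell together from rat to rat. After each group's mean was subtracted from log2(scaled coverage + 1), Pearson's r over the 24 libraries was 0.85 for C1qa with C1qc, 0.81 for C1qb with C1qc and 0.76 for C1qa with C1qb. The permutation p, with values permuted within groups 100000 times and adjusted over the 45 pairs of members, was 0.00015 for C1qa with C1qc, 0.000375 for C1qb with C1qc and 0.00107 for C1qa with C1qb. The unadjusted p of the first, 1e-05, is the smallest that these permutations can give. Spearman's rho was 0.77, 0.77 and 0.67 in the same order (adjusted permutation p = 0.00129, 0.000975 and 0.00624). Without the 2 libraries farthest from the median of the first gene, r was 0.78, 0.73 and 0.64.

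The correlation was not held by a single group, though it was strongest in High. For C1qa with C1qc it was 0.80 in Control, 0.55 in Low and 0.94 in High (n = 8 each). For C1qb with C1qc the values were 0.79, 0.75 and 0.83, and for C1qa with C1qb 0.60, 0.45 and 0.95. Differences between groups in these values were not tested. Libraries 56 to 62 were then left out together. In the 17 other libraries r was 0.87, 0.78 and 0.79 for C1qa with C1qc, C1qb with C1qc and C1qa with C1qb. Against library properties, the mean deviation of the C1q chains had r of 0.00 with the summed reference coverage, and -0.09 with the mitochondrial share.

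**Figure D4:**
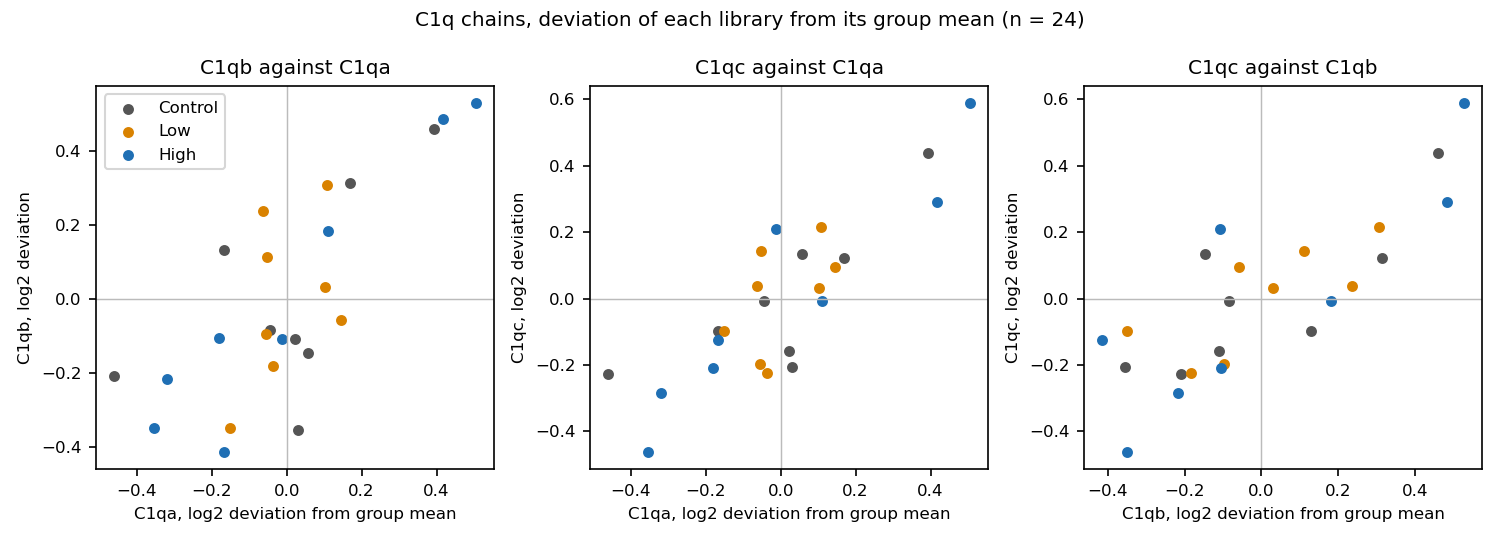
Deviation of each library from its group mean in log2(scaled coverage + 1), for each pair of C1q chains (x and y axes), coloured by group, 24 points per panel. The points rise together in each panel, with r of 0.76, 0.85 and 0.81 from left to right.

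The proportions of the chains were compared between groups. C1qb was 0.600 ± 0.0978 of C1qa in Control, 0.576 ± 0.0813 in Low and 0.536 ± 0.0429 in High (SD, n = 8 each). C1qc was 0.462 ± 0.0487 of C1qa in Control, 0.411 ± 0.0395 in Low and 0.460 ± 0.0404 in High. By the exact two-sided permutation test over libraries, C1qc to C1qa was lower in Low than in Control with p = 0.0401 and lower than in High with p = 0.0261, but over the 9 tests made these became 0.120 and 0.117. The smallest p of the 9 was for C1qc to C1qb, 0.721 ± 0.0761 in Low against 0.866 ± 0.131 in High (exact permutation p = 0.0121, adjusted p = 0.109). None of the 9 passed the adjustment.

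The other members followed each other to different degrees. Of all 45 pairs, 44 had a positive r and 24 passed at an adjusted permutation p of 0.05 over the pairs. A passing pair need not be unusual among all genes, since 27.5% of the other genes tested had an r with Cx3cr1 at least as high as that of P2ry12 (0.59), and 33.3% as high as that of C1qc (0.52). Csf1r with Itgam was the closest pair, with r of 0.86, rho of 0.85 and r of 0.82 without the 2 farthest libraries (adjusted permutation p = 0.00015 for r). Cx3cr1 with Csf1r followed, with r of 0.82, rho of 0.86 and r of 0.84 without the 2 farthest (adjusted permutation p = 0.00015). Csf1r also tracked the C1q chains, with r of 0.79 with C1qc, 0.77 with C1qb and 0.70 with C1qa, and Aif1 tracked C1qb with r of 0.81 (adjusted permutation p = 0.000225, 0.000514, 0.00267 and 0.00027).

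Cd68 and Tmem119 were in no passing pair. Cd68 had r from -0.32 to 0.32 with the other 9 members, and 0 of its 9 pairs passed. Tmem119 had r from -0.32 with Cd68 to 0.46 with Csf1r, and 0 of its 9 pairs passed. Set against all genes, whose median r with Tmem119 was 0.06, only 1.95% were as high with it as Csf1r and 2.42% as high as C1qb. Cd68 had the lowest coverage of the tested members.

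**Figure D5:**
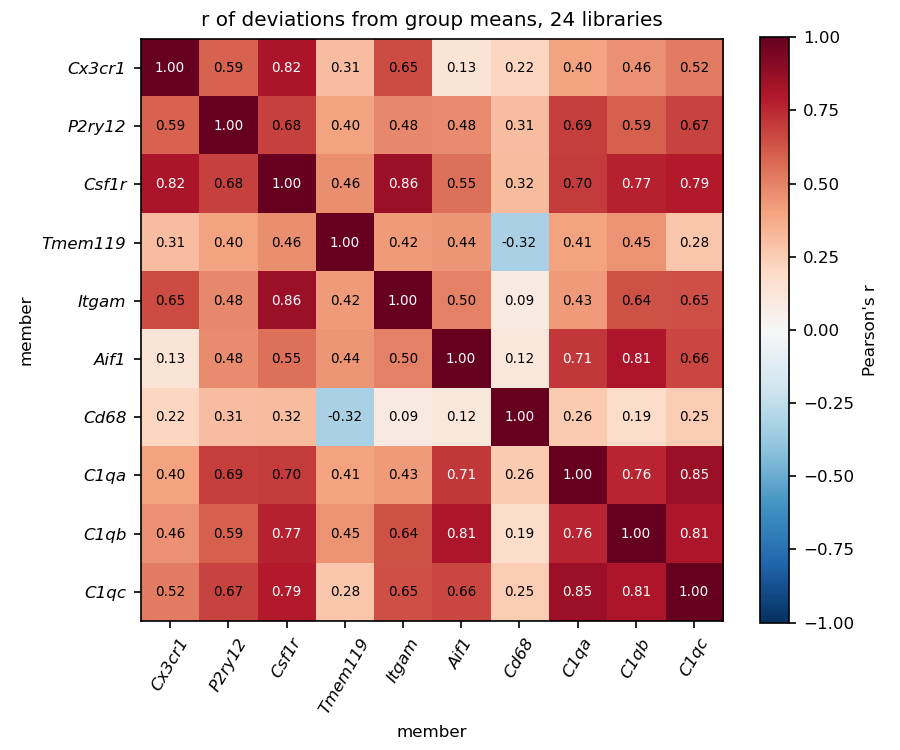
Pearson's r of deviations from group means over 24 libraries for each pair of members (both axes, ordered by role), printed in each square and shown by colour from -1 to 1. The C1q square at the lower right (0.76 to 0.85) and the Csf1r row are high, while the Cd68 row lies between -0.32 and 0.32.

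An r of at least 0.5 with the members' means was common in these libraries. An r as high as that between C1q chains was reached by 0.013% to 1.23% of the other genes tested. The genes most like the mean C1q deviation were Isyna1 (r = 0.91), Sparc (0.90), Tnfrsf1a (0.89), Psme2 (0.89) and Hmgn1 (0.88). Those most like the mean of the 6 other tested members were Bcan (0.91), Sema4g (0.89), Septin2 (0.88), Rgs16 (0.88) and Rbm5 (0.88). Bcan encodes brevican, a matrix proteoglycan of the brain, and Sparc a secreted matrix protein. An r of at least 0.5 was reached by 16.3% of all other genes with the C1q mean and by 20.6% with the mean of the other members. Among 15643 genes ranked by r, C1qc was number 2 for C1qa and C1qa number 2 for C1qc. C1qb was number 58 for C1qa and 36 for C1qc, while C1qa was number 192 and C1qc number 68 for C1qb. Other pairs were spread over the ranking, and some stood as high as the C1q pairs. C1qb was number 36 for Aif1, and Csf1r was number 46 for C1qc. For C1qb, Aif1 was number 56, ahead of C1qc and C1qa. At the other end, C1qa was number 6835 for Cx3cr1 and C1qb number 4829 for Cd68.

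Lists of other cells' markers moved with the members too, given as r with the mean C1q deviation over 24 libraries and with no test. It was 0.81 for 26 other microglia genes, 0.73 for 6 border macrophage genes, 0.70 for 4 genes of meninges and choroid plexus, 0.62 for 5 striatal genes, 0.56 for 5 haemoglobin and red cell genes, 0.51 for 6 astrocyte genes, 0.27 for 6 oligodendrocyte genes, 0.23 for 4 endothelial and pericyte genes and -0.28 for 6 neuronal genes. With the mean of the other members it was 0.90 for the other microglia genes, 0.75 for the astrocyte genes and 0.70 for the border macrophage genes. It was 0.64 for the striatal, 0.53 for the endothelial and pericyte and 0.49 for the red cell genes. For genes of meninges and choroid plexus it was 0.43, for oligodendrocyte genes 0.33 and for neuronal genes -0.16. The part of tissue makeup in the shared movement of the members was not tested.

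Other genes that microglia express were set beside the members. Of 27 listed, 26 were tested, and 0 passed in any of the 3 comparisons by limma. Of all genes tested, 0% passed in High against Control, 6.11% in Low against Control and 11.7% in Low against High. Beside these shares, the count is no result about the list. The median log2 difference of the 26 was 0.00 in High and 0.06 in Low against Control, beside -0.03 and 0.06 for all genes. Siglech was listed at 0 in all libraries. The largest differences in High were those of Ly86, a partner of a Toll-like receptor family member, at 3.10 ± 1.29 against 2.28 ± 0.605 (log2 difference 0.27, interval -0.13 to 0.67), and of Inpp5d, a phosphatase of immune cell signalling, at 10.9 ± 1.94 against 12.2 ± 2.32 (-0.15, -0.44 to 0.13). In Low they were Gpr34, a receptor for lysophospholipids, at 21.03 ± 2.58 against 18.1 ± 2.75 (0.21, -0.04 to 0.47), and Ctss, a lysosomal protease, at 138.9 ± 9.38 against 162.1 ± 23.6 (-0.21, -0.46 to 0.03).

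Of 24 genes listed for activated microglia, 17 were tested and 0 passed in any comparison. Beside the 0%, 6.11% and 11.7% of all genes called in High against Control, Low against Control and Low against High, this count is no result about the list. Their levels spread widely, from a mean of 1.06 for Tlr4 to 406 for the lysosomal protease Ctsb and 2591 for the lipid carrier Apoe among those tested, and several of the high ones are also made by other brain cells. The disease-associated genes Cst7 and Clec7a had mean scaled coverages of 0.0997 and 0.191 over all libraries, and the cytokines Tnf and Il1b of 0.132 and 0.347, all under the filter. The median log2 difference from Control was -0.01 in High and 0.10 in Low, beside -0.03 and 0.06 for all genes. Tlr4, the receptor for bacterial lipopolysaccharide, had the largest difference in High, at 0.842 ± 0.331 against 1.30 ± 0.385 (log2 difference -0.32, interval -0.60 to -0.05, limma adjusted p = 0.999). Lpl, lipoprotein lipase, followed at 12.1 ± 6.51 against 13.4 ± 4.22 (-0.25, -0.79 to 0.30). In Low, Lpl had the largest difference, at 10.1 ± 3.73 (-0.40, -0.94 to 0.15), and Cd74, a chaperone of antigen presentation, followed at 17.5 ± 6.86 against 21.6 ± 5.49 (-0.33, -0.77 to 0.12).

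Ligands and partners of the receptors were next. Of 8 genes (Csf1, Il34, Cx3cl1, Tgfb1, Cd200, Cd200r1, Cd47 and Sirpa), all were tested and 0 passed. Beside the shares of all genes called (above), this count is no result about the list. Cx3cl1, the neuronal ligand of Cx3cr1, was 343 ± 52.9 in Control, 363 ± 40.9 in Low and 313 ± 55.6 in High. Il34, the main ligand of Csf1r in cortex, was 43.5 ± 4.88, 41.2 ± 6.497 and 39.4 ± 4.81. The largest differences were those of Cd200r1, at -0.38 in High (interval -1.08 to 0.33) and -0.13 in Low, Cd47, at -0.17 in High (-0.41 to 0.08), and Sirpa, at 0.12 in Low (-0.05 to 0.29).

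In the rest of the complement cascade, 31 of 32 listed genes were found and 28 features tested. In High against Control 0 passed, beside 0% of all genes tested, so that count is no result about the list. The largest differences were in C5ar2, a receptor for the fragment C5a, at 1.71 ± 0.884 against 2.14 ± 0.509 (log2 difference -0.27, interval -0.64 to 0.10), and Serping1, the inhibitor of C1r and C1s, at 10.5 ± 3.32 against 12.6 ± 3.20 (-0.26, -0.64 to 0.13). The proteases that C1q activates, C1r and C1s, were at 11.3 ± 2.91 and 2.64 ± 0.872 in Control and at 11.6 ± 2.48 and 2.65 ± 0.681 in High.

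In Low, 0 features were higher and 2 of 28 were lower than in Control, and the same 2 were lower than in High. Beside the 6.11% and 11.7% of all genes called in those comparisons, this count is no result about the complement list. Cfb (ENSRNOG00000000419), factor B of the alternative pathway, was 0.827 ± 1.44 in Low against 7.57 ± 1.997 in Control (log2 difference -2.42, interval -2.91 to -1.93, limma adjusted p = 2.86e-08). Its Low values ran from 0.111 to 4.38 with a median of 0.392, against 4.98 to 11.95 in Control, and without library 61, the one left out at which the estimate moved most, the log2 difference was -2.68. The size depended on the setting, at -3.81 with a pseudocount of 0.1 and -1.32 in FPKM. A second identifier named Cfb (ENSRNOG00000051158) was 6.29 ± 2.35 against 7.23 ± 2.05 (log2 difference -0.24, adjusted p = 0.599). The first spans chr20:4536203-4561066 on the minus strand, which holds the second and most of C2 (C2 begins at 4542340) on the same strand. The mean of C2 was 7.50 in Low against 8.96 in Control. How reads were divided between these features was not tested, so the lower value of the first cannot be read as less factor B transcript. C4b, which carries a thioester like its near copy C4a, was 1.25 ± 0.329 in Low against 2.42 ± 0.999 in Control (-0.57, interval -0.86 to -0.28, adjusted p = 0.0145), while C4a was 4.86 ± 1.96 against 5.49 ± 1.79 (-0.21, adjusted p = 0.660), and reads of such near copies can be divided in more than one way. With only the Low and Control libraries in the fit, C4b missed the threshold (limma adjusted p = 0.0508). Both calls compare tables with and without assembled loci, which cannot be told apart from the dose.

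Markers of other cell types gave the following. Border macrophage markers (8 of 9 found, 6 tested) and blood leukocyte markers (9 of 10 found, 1 tested) had 0 calls in each comparison. With so few tested, this is no result beside the shares of all genes called (0% in High against Control, 6.11% in Low against Control and 11.7% in Low against High). The sum of border macrophage genes lay between 9.72 and 21.6 for Control rats, between 7.60 and 13.2 for Low rats, and between 7.84 and 19.7 for High rats, all below the sum of the 10 members. Their median log2 difference was -0.32 in Low and -0.04 in High against Control. Leukocyte sums stayed between 0.860 and 6.96. In library 56, the highest Control library for 8 members, they were 6.96 against 1.38 to 3.79 in the other Control libraries, and red blood cell genes were 1689 against 767.2 to 1159. The part of blood content in the high member values of that library was not tested.

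Neuronal, astrocyte, oligodendrocyte, red blood cell, striatal, and meningeal and choroid plexus lists had 0 calls in each comparison. Beside the same shares of all genes, these counts are no result about such short lists. Their median log2 differences in High were -0.09, -0.10, -0.15, -0.09, -0.29 and -0.25, and in Low 0.11, 0.00, 0.10, -0.26, -0.57 and -0.40. Among 4 tested endothelial and pericyte genes, Pdgfrb, the pericyte receptor for platelet-derived growth factor, fell in Low from 12.99 ± 2.40 to 7.74 ± 1.38 (log2 difference -0.68, interval -0.94 to -0.41, limma adjusted p = 0.000902) and was also lower than in High, at 12.6 ± 2.20 (adjusted p = 0.00136). The call rested on the coverage column. In TPM its log2 difference from Control was -0.26 (limma adjusted p = 0.158) and in FPKM 0.12 (limma adjusted p = 0.286). Both values lay below the median of all genes in their column for that comparison (above). Pdgfrb ends 8106 bases before Csf1r on the same strand, and Csf1r itself did not pass in any comparison of scaled coverage.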

How the data were processed

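Polyadenylated RNA of rat frontal cortex was sequenced from stranded libraries, 1 per rat. The submitters' processing notes name FastQC, Trimmomatic, TopHat2 and StringTie, with versions and options not given in the sources used here. Each deposited table lists, per gene, the coverage computed by the authors (mean read depth per base, a signal that is not scaled for depth), together with deposited FPKM and TPM columns. In the Low tables the deposited TPM values sum to 1000000. In the Control and High tables the authors' TPM column sums to 1.70 to 1.98 times that, assembled loci included, and it was treated as a score. Assembled loci number 46334 to 159573 per table in Control, 50235 to 64010 in High and 0 in Low. The tables give no read count per library, and the nominal depth of the study was not used here. The summed reference coverage was 1.64 to 3.07 in units of 1000000 and the mitochondrial share 21.8% to 33.8%.

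Coverage was summed per Ensembl gene, divided by the library's sum over reference genes and multiplied by 1000000. limma 3.58.1 (R 4.3.3, trend and robust) was fitted to log2(value + 1) of genes with a mean of at least 1, for all 24 libraries in a 3-group fit, two-sided, with Benjamini-Hochberg adjustment over all genes at 0.05, and was tested on simulated data. Correlations used within-group permutations (Python 3.11.15, numpy 2.4.6). p-values measure the spread between libraries of different rats. Unit choice, scaling, filters, pseudocount, an exact rank test, a covariate and left-out libraries were tried as alternatives.

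The members and the gene lists were chosen with earlier results of these data known. Named genes were all members, up to 3 genes of each other list past the threshold, and otherwise the 2 with the largest differences in the microglia, activated, ligand and complement lists. C1r, C1s, C4a, Cx3cl1, Il34, Siglech, Cst7, Clec7a, Tnf, Il1b, Ctsb and Apoe were named outside that rule, after their values were seen. The ratios of the C1q chains, the fits without libraries 49 and 57, the correlations without libraries 56 to 62 and the account of assembled loci were added after seeing the data. The refits of Cfb, C4b and Pdgfrb under the same alternatives were added then too.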

Additional observations from a re-analysis of the deposited data

Results flagged for a closer look

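In each group of 8 libraries, the lowest or highest value was compared with its nearest neighbour by Dixon's criterion at its 95% level, for the 10 members and for the summed coverage of the 13 other gene lists. Chance marks about 1 in 20 such sets, and of 69 sets 6 were marked, where chance alone gives about 3.45. Among the members only Cx3cr1 was marked, in Low library 57, at a scaled coverage of 12.5 against 22.1 to 26.7 in the other Low libraries. The same library was marked for endothelial and pericyte markers, with a sum of 38.3 against 64.6 to 86.97, and Control library 49, the lowest Control library for Cx3cr1, was marked for the same list at 38.1 against 69.04 to 87.3.

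Control library 56, the highest of its group for 8 members, was marked for blood leukocyte markers at 6.96 against 1.38 to 3.79 and for red blood cell genes at 1689 against 767.2 to 1159. Low library 61 was marked for neuronal markers at 1413 against 1760 to 2059. Whether these makeup differences bear on the members was not tested.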

How the results depend on the processing

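The number of members called was 0 in each of the 3 comparisons under the alternatives run (pseudocount, filters, scalings, only the groups compared, rank test, covariate, left-out libraries), except by column: 9 members passed in FPKM and 1 in TPM in Low against Control, and 9 and 1 in Low against High. The correlations of the C1q chains kept their sign and side of the threshold in 72 fits with a library left out and 12 others. No paired analysis was possible because the groups share no library numbers. Of all genes, the 956 calls of Low against Control became 556 with a filter at a mean of 5, 1759 with scaling without mitochondrial genes, 12393 in FPKM, 3952 in TPM, 361 with the covariate for libraries 56 to 62 and 566 with only the groups compared. The 1828 of Low against High became 1192 with that filter, 12410 in FPKM, 3927 in TPM, 354 with the covariate and 4507 without libraries 49 and 57, and the 0 of High against Control became 390 without both. Differences (log2) of members, and of Pdgfrb in FPKM, changed sign as follows, and the cause was not tested. Without scaling these were Cx3cr1 -0.0047 and Tmem119 -0.032 for Low against Control, and Cx3cr1 0.15, P2ry12 0.15, Csf1r 0.18, Cd68 0.092 and C1qb 0.17 for High against Control, and Cx3cr1 -0.15, P2ry12 -0.074, Csf1r -0.11, C1qa -0.20 and C1qb -0.11 for Low against High. With median-of-ratios scaling these were Cx3cr1 -0.028 and Tmem119 -0.054 for Low against Control, and Cx3cr1 0.0025, P2ry12 0.0073, Csf1r 0.033 and C1qb 0.026 for High against Control, and Cx3cr1 -0.031 and C1qa -0.079 for Low against High. With libraries 56 to 62 as a covariate these were Cx3cr1 -0.024, Csf1r -0.085, Tmem119 -0.11, Aif1 -0.16 and C1qb -0.087 for Low against Control, and Csf1r 0.034 and C1qb 0.026 for High against Control, and Cx3cr1 -0.00066, Csf1r -0.12, C1qa -0.073 and C1qb -0.11 for Low against High. As a difference of medians, beside the exact Wilcoxon test, these were Cx3cr1 -0.0098, P2ry12 -0.10, Tmem119 -0.021 and C1qc 0.076 for Low against Control, and Tmem119 -0.061 for High against Control, and P2ry12 -0.058 and Tmem119 0.041 for Low against High. Without libraries 49 and 57 together, an alternative chosen after seeing the data, these were Tmem119 -0.027 for Low against Control. With scaling without mitochondrial genes these were C1qc 0.013 for Low against Control, and Csf1r 0.020 and C1qb 0.013 for High against Control. In FPKM these were C1qc 0.46 and Pdgfrb 0.12 for Low against Control, and P2ry12 0.017, Csf1r 0.063 and C1qb 0.037 for High against Control, and Tmem119 0.32, Aif1 0.47, C1qc 0.29 and Pdgfrb 0.17 for Low against High. The C1qc and Pdgfrb values for Low against Control lay below the median of all genes in that column (above). In TPM these were C1qc 0.083 for Low against Control, and P2ry12 0.018, Csf1r 0.065 and C1qb 0.038 for High against Control, and Aif1 0.096 for Low against High. With each library left out in Low against Control, Cx3cr1 from -0.096 to 0.14, Tmem119 from -0.066 to 0.058 and C1qc from -0.044 to 0.051 were the ranges. With each library left out in High against Control, Cx3cr1 from -0.16 to 0.032, P2ry12 from -0.13 to 0.051, Csf1r from -0.071 to 0.057, Cd68 from -0.13 to 0.058 and C1qb from -0.086 to 0.055 were the ranges. With each library left out in Low against High, Cx3cr1 from -0.0046 to 0.17, Aif1 from -0.067 to 0.045 and C1qa from -0.035 to 0.088 were the ranges.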
